A study of Homo sapiens with 6 samples.

Results

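The 44 genes described here encode the working parts of the lysosome and a few of the autophagy factors that feed it. They were listed by symbol for their known function, with no threshold on any measured value, but with earlier results of these data known. They were found in the deposited table through their Ensembl identifiers. All 44 of the 44 listed genes were present among the 62438 gene identifiers of the table. By role they were 3 proteins of the lysosomal membrane, 7 proteases, 10 glycosidases, 2 sulfatases, 1 activator protein, 7 genes of the membrane sector of the proton pump and its accessory proteins, 8 genes of its cytosolic sector, 2 transcription factors and 4 autophagy genes.

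Global mRNA was measured by RNA-seq in 3 libraries of si-N6AMT1 and 3 libraries of si-CN. N6AMT1 is described by the authors of the study as a methyltransferase of adenine in DNA. In the si-N6AMT1 group, cells of the human breast cancer line labelled MDA-MB-453 received 10 nM of siRNA against this gene with Lipofectamine RNAiMAX. In the si-CN group they received the same dose of scrambled siRNA, and both groups were harvested at 48 h. The knockdown was transient, in a single line with no genetic change made to it, and the number of different siRNA sequences behind si-N6AMT1 is not given in the sources used here. The labels do not tie the 3 libraries of a group to separate cultures, so the p-values measure the spread between these libraries, which may be technical. Only mRNA was measured, not protein, lysosomal pH or enzyme activity.

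The lysosome is an acidic organelle in which hydrolases break down proteins, glycans and lipids delivered from the cell surface or by autophagy. Its acidity is made by the vacuolar ATPase, in which the cytosolic V1 sector hydrolyses ATP and the V0 sector in the membrane carries protons. Many of these genes carry a short promoter element that is bound by the transcription factors TFEB and TFE3, which move into the nucleus on starvation and lysosomal stress.

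Library totals lay between 19739247 and 21289740 estimated counts, so that 1 CPM (the count scaled to a fixed library size) stood for 19.7 to 21.3 counts. The lowest estimated count of any of the 44 genes in any library was 176. N6AMT1 itself had 3.08, 3.53 and 2.93 CPM in the si-N6AMT1 libraries and 6.93, 6.86 and 6.65 CPM in the si-CN libraries, that is, -1.10 as log2 fold change (standard error, SE, 0.119, FDR = 3.65e-07). Mitochondrially encoded transcripts took 2.91 to 3.11% of counts in si-N6AMT1 and 3.64 to 3.86% in si-CN, and the part of this shift in the results below was not tested. The markers of the cells went in part against their label. MDA-MB-453 is known as a line with luminal features, whereas the luminal factors TFAP2B and SPDEF had 0 to 1 and 1 to 6 counts in any library. Other genes of the 13 luminal markers were abundant, with 11822 to 13427 counts for KRT8, 9121 to 10011 for KRT18, 5751 to 6763 for EPCAM, 1516 to 1651 for XBP1 and 1046 to 1151 for ERBB2. The basal keratin KRT5 had 15009 to 17114 counts and VIM 12269 to 13302 across the 6 libraries. The cells are therefore called by their label only. Of 11 markers of blood, vessel, stromal and liver cells, PTPRC, CD3E, CD163 and ALB had at most 3 counts in any library, whereas CD68 had 2779 to 4162, COL1A1 874 to 978 and COL3A1 53 to 80. In bulk RNA, fewer cells of a type and less RNA per cell cannot be told apart.

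All 44 genes passed the filter on low counts and entered the fit across 17320 genes. After si-N6AMT1, 6 of them were downregulated and 12 upregulated at a false-discovery rate (FDR) under 0.05, and 26 were not called. Among all genes tested 11.5% were downregulated and 9.78% upregulated, compared with 13.6% and 27.3% of the lysosome and autophagy genes. These genes were abundant, and abundant genes were called more often. Among the 10308 tested genes with a mean CPM at or above that of the lowest of them (9.17 CPM), 18.2% were downregulated and 14.3% upregulated. Among the 22 of the 44 at or above their own median of 96.6 CPM, 5 were downregulated and 7 upregulated, where 28.5% and 20.4% of all 2432 genes at that level were. Both level cut-offs were added after the values had been seen. The downregulated share was thus below that of genes at like levels and the upregulated share above it, and this difference was not tested.

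The changes were small. The log2 fold changes ran from -0.35 for GABARAPL1 to 0.28 for CTSC, with a median of 0.0384 beside 0.0039 over all genes tested. Of the 44 values, 17 lay below 0 and 27 above it. In 9 genes every si-N6AMT1 library lay below every si-CN library (20.5%, against 18.0% of all genes tested), and in 18 genes every one lay above (40.9%, against 16.8%). The downregulated genes were GABARAPL1, ATP6V1E1, IDS, LAMP2, ATP6V1A and FUCA2. The upregulated genes were CTSC, ATP6V0A1, FUCA1, SQSTM1, ATP6V0E1, CTSA, CTSD, ATP6V1F, GLB1, PSAP, CTSB and ATP6V0B. In the plot of fold changes by role, calls in both directions stood side by side within the glycosidases, the V1 sector and the autophagy genes.

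**Figure D1:**
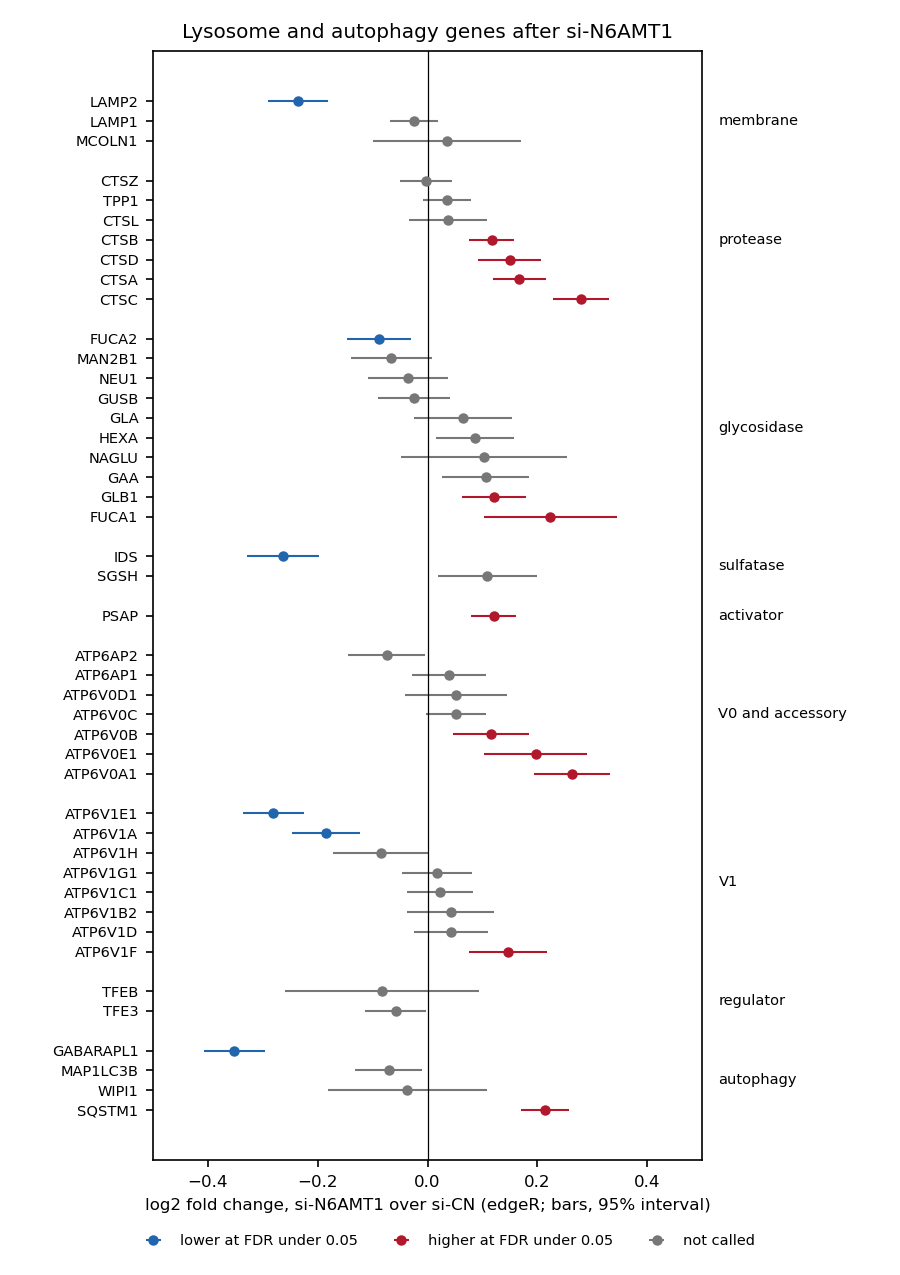
Log2 fold change of each of the 44 genes in si-N6AMT1 over si-CN, grouped by role, with the 95% interval from edgeR as bars and the call at FDR under 0.05 as colour. The proteases and the V0 sector hold calls above 0 and none below, whereas LAMP2, IDS, ATP6V1E1, ATP6V1A and GABARAPL1 stand clear of 0 on the lower side.

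Among the membrane proteins, LAMP2 fell and LAMP1 did not pass the test. Both are heavily glycosylated proteins that line the inner face of the lysosomal membrane, and one splice form of LAMP2 is the receptor of chaperone-mediated autophagy. LAMP2 (ENSG00000005893, chrX:119560003-119603220 on the minus strand of GRCh37, as are the gene positions that follow) had 131.7, 132.2 and 130.3 CPM in si-N6AMT1 and 154.9, 150.8 and 158.4 CPM in si-CN. The groups did not overlap, and the si-N6AMT1 libraries lay within 2 CPM of each other. Its log2 fold change was -0.24 (SE 0.0263, FDR = 5.52e-07), a decrease of 15.1%.

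LAMP1, the more abundant of the pair, had 425.4, 429.1 and 418.7 CPM in si-N6AMT1 and 428.4, 432.7 and 433.8 CPM in si-CN. One si-N6AMT1 library lay inside the si-CN range, and the log2 fold change of -0.02 had a 95% interval from -0.07 to 0.02 (FDR = 0.471). MCOLN1, a calcium-permeable channel of the lysosomal membrane, had 17.5, 16.8 and 17.9 CPM in si-N6AMT1 and 16.1, 17.8 and 17.1 CPM in si-CN, which overlapped (log2 fold change 0.04, interval -0.10 to 0.17, FDR = 0.770). The MCOLN1 value is uncertain because the neighbouring gene PNPLA6 overlaps it on the same strand and was more abundant. Per transcript length, the level of LAMP2 was 0.128 ± 0.000624 (SD, n = 3) times that of LAMP1 in si-N6AMT1 and 0.148 ± 0.00361 times in si-CN. This pair was chosen after its values had been seen, and the ratio was not tested.

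Of the 7 proteases 4 were upregulated and none was downregulated, where 9.78% of all genes tested and 20.4% of those at or above the median level of the 44 were upregulated. The proteases were among the most abundant of the 44 genes, and no test was run on the class. CTSC (ENSG00000109861, chr11:87998237-88092852 on the minus strand), also known as dipeptidyl peptidase I, which activates granule serine proteases, rose most of all 44 genes. It had 311.0, 307.8 and 297.1 CPM in si-N6AMT1 and 257.3, 250.3 and 247.2 CPM in si-CN. The lowest si-N6AMT1 library lay above the highest si-CN library, and the log2 fold change was 0.28 (SE 0.0244, FDR = 1.41e-08), an increase of 21.4%. CTSA, a serine carboxypeptidase that also holds GLB1 and NEU1 in a stable complex, had 264.1, 257.7 and 261.0 CPM in si-N6AMT1 and 228.1, 236.2 and 233.0 CPM in si-CN (log2 fold change 0.17, SE 0.0232, FDR = 1.14e-05). Its groups did not overlap either.

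CTSB, a cysteine protease and the most abundant of the 44 transcripts, had 1597, 1591 and 1568 CPM in si-N6AMT1 and 1455, 1489 and 1440 CPM in si-CN. Its increase was smaller in proportion, with a log2 fold change of 0.12 (SE 0.0197, FDR = 1.20e-04). CTSD, the main aspartic protease, had 421.3, 415.1 and 433.1 CPM in si-N6AMT1 and 361.8, 396.2 and 386.6 CPM in si-CN, where the first library stood lower than the other two. The log2 fold change of CTSD was 0.15 (SE 0.0274, FDR = 3.14e-04), and 0.09 once GC content was corrected for and replicate number entered as a block (FDR = 0.0222). The gene ENSG00000250644 overlaps CTSD on the same strand, at 4.64% of its CPM, and was upregulated too (log2 fold change 0.26, FDR = 0.0218). Its part in the CTSD value was not tested. The cysteine proteases CTSL and CTSZ and the tripeptidyl peptidase TPP1 did not pass the test, with log2 fold changes of 0.04, -0.0020 and 0.04. For CTSZ the 95% interval ran from -0.05 to 0.05, and its transcript overlaps that of NELFCD on the opposite strand.

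The 10 glycosidases, which remove sugars from glycoproteins, glycolipids and glycogen, held 1 downregulated and 2 upregulated genes. For comparison, 11.5% of all genes tested were downregulated and 9.78% upregulated, and 18.2% and 14.3% of those at or above 9.17 CPM. No test was run on this class. GLB1, the β-galactosidase, had 111.8, 109.8 and 114.2 CPM in si-N6AMT1 and 103.4, 104.0 and 101.3 CPM in si-CN. Its groups did not overlap, and it rose by a log2 fold change of 0.12 (SE 0.0280, FDR = 0.00273). The 2 fucosidases, which cleave fucose, moved in opposite directions. FUCA1, the lysosomal enzyme, had 25.3, 28.8 and 25.3 CPM in si-N6AMT1 and 23.1, 22.4 and 22.5 CPM in si-CN. Its second si-N6AMT1 library stood above the other two. The log2 fold change of 0.22 (SE 0.0583, FDR = 0.00729) became 0.16 without that library, and FUCA1 was then no longer called (FDR = 0.0761).

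FUCA2, the fucosidase known from plasma, had 137.9, 132.2 and 137.1 CPM in si-N6AMT1 and 147.6, 146.3 and 139.3 CPM in si-CN. The gap between the groups was narrow at the third si-CN library, and the log2 fold change was -0.09 (SE 0.0283, FDR = 0.0279). Without si-N6AMT1 replicate 2 or 3, or without si-CN replicate 1 or 2, FUCA2 was not called (FDR = 0.147, 0.0503, 0.113 and 0.106). The other 7 glycosidases were not called. GAA, which breaks down glycogen, was nearest to the threshold (log2 fold change 0.11, FDR = 0.0501), followed by HEXA, a subunit of β-hexosaminidase (0.09, FDR = 0.0771). GLA, NAGLU, NEU1, MAN2B1 and GUSB had log2 fold changes from -0.07 (MAN2B1) to 0.10 (NAGLU). GLA overlaps RPL36A, and the pseudogenes GUSBP11 and GUSBP18 had 22.7% and 21.3% of the CPM of GUSB, so both values are uncertain.

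The 2 sulfatases, each of which removes sulfate groups from heparan sulfate, differed in sign. IDS (ENSG00000010404, chrX:148558519-148602635 on the minus strand) had 90.8, 88.1 and 84.4 CPM in si-N6AMT1 and 102.9, 105.1 and 107.8 CPM in si-CN. No si-N6AMT1 library reached the si-CN range, and the log2 fold change was -0.26 (SE 0.0318, FDR = 1.62e-06), a decrease of 16.7%. SGSH averaged 40.3 ± 1.65 CPM in si-N6AMT1 against 37.4 ± 0.582 CPM in si-CN (SD, n = 3 each) and did not pass the test (log2 fold change 0.11, FDR = 0.0789). PSAP, the precursor of the saposins that present lipids to hydrolases, had 1009, 985.6 and 988.1 CPM in si-N6AMT1 and 917.3, 913.3 and 912.6 CPM in si-CN. The groups were well apart relative to their spread, at a log2 fold change of 0.12 (SE 0.0196, FDR = 7.84e-05). The hydrolases and PSAP together counted 7 upregulated (35.0%) and 2 downregulated (10.0%) of 20 genes. Among all genes tested 9.78% were upregulated and 11.5% downregulated, and 14.3% and 18.2% of those at or above 9.17 CPM. No test was run on this sum of classes.

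Of the 7 V0 and accessory genes of the proton pump 3 were upregulated and none downregulated, and of the 8 V1 genes 2 were downregulated and 1 upregulated. Among all genes tested 11.5% were downregulated and 9.78% upregulated, and 18.2% and 14.3% of those at or above 9.17 CPM. At or above the median level of the 44 the shares were 28.5% and 20.4%, but many of the pump genes lay below that level. With so few genes per sector nothing is read from these counts. In the V0 sector, ATP6V0A1 (ENSG00000033627, chr17:40610862-40674600 on the plus strand), an isoform of the large a subunit that lines the proton path, had 74.9, 74.3 and 72.6 CPM in si-N6AMT1 and 60.6, 62.9 and 61.3 CPM in si-CN. All 3 si-N6AMT1 libraries were higher, with a log2 fold change of 0.26 (SE 0.0333, FDR = 3.22e-06). ATP6V0E1, a small membrane subunit, had 63.0, 66.5 and 74.2 CPM in si-N6AMT1 and 60.6, 58.7 and 58.5 CPM in si-CN. The third si-N6AMT1 library was the highest by far: the log2 fold change of 0.20 (SE 0.0455, FDR = 0.00284) was 0.13 without it, still called (FDR = 0.0336).

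ATP6V0B, one of the subunits of the rotating ring, had 82.5, 78.5 and 82.3 CPM in si-N6AMT1 and 73.4, 77.4 and 73.8 CPM in si-CN. The lowest si-N6AMT1 and the highest si-CN library nearly met, and the log2 fold change was 0.12 (SE 0.0334, FDR = 0.0152). Without si-N6AMT1 replicate 1 or 3, or without si-CN replicate 1 or 3, ATP6V0B was not called (FDR = 0.0557, 0.0678, 0.0611 and 0.0694). The ring subunit ATP6V0C, the d subunit ATP6V0D1 and the accessory proteins ATP6AP1 and ATP6AP2 did not pass the test, with log2 fold changes from -0.07 (ATP6AP2) to 0.05 (ATP6V0C).

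In the V1 sector, ATP6V1E1 (ENSG00000131100, chr22:18074902-18111515 on the minus strand), a subunit of the peripheral stalks, had 115.0, 118.7 and 116.3 CPM in si-N6AMT1 and 139.6, 140.6 and 145.0 CPM in si-CN. The gap between the groups was several times the spread within either, at a log2 fold change of -0.28 (SE 0.0269, FDR = 5.92e-08), a decrease of 17.7%. ATP6V1A, the catalytic subunit, had 104.2, 100.9 and 107.3 CPM in si-N6AMT1 and 115.4, 121.2 and 118.7 CPM in si-CN. Its log2 fold change was -0.19 (SE 0.0298, FDR = 7.11e-05). In the other direction, the rotor subunit ATP6V1F had 86.8, 90.7 and 88.8 CPM in si-N6AMT1 and 81.4, 83.2 and 76.3 CPM in si-CN (log2 fold change 0.15, SE 0.0341, FDR = 0.00311).

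The remaining V1 genes were not called. They were ATP6V1B2, which shares the ATP sites with ATP6V1A, the stalk subunit ATP6V1G1, the rotor subunit ATP6V1D, and ATP6V1C1 and ATP6V1H, which help to join V1 to V0. ATP6V1D overlaps PALS1 on the opposite strand, whose CPM was 100% of its own, so its value is uncertain. Across these uncalled V1 genes the log2 fold changes ran from -0.08 (ATP6V1H) to 0.04 (ATP6V1D). Subunits that work in one complex thus differed in direction, but the difference between sectors was not tested.

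Neither of the 2 transcription factors was called. TFE3 had 106.0, 105.5 and 105.6 CPM in si-N6AMT1 and 110.9, 108.7 and 110.5 CPM in si-CN, so that every si-N6AMT1 library was lower. The log2 fold change of TFE3 was -0.06 with a 95% interval from -0.11 to -0.0023 (FDR = 0.138), and under the GC correction and block it was -0.10 and called (FDR = 0.0256). TFEB, the least abundant of the 44 genes, had 8.93, 9.21 and 8.58 CPM in si-N6AMT1 and 9.12, 9.40 and 9.76 CPM in si-CN. The groups overlapped, and the interval of its log2 fold change of -0.08 ran from -0.26 to 0.09 (FDR = 0.559). Their activity is set largely by phosphorylation and position in the cell, which mRNA levels do not show.

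Promoters of the listed genes were searched for CACGTG, the core of the element that TFEB and TFE3 bind, and for the longer TCACGTGA that contains it. Each sequence reads the same on both strands. RefSeq promoters of 300 bases, from 250 before to 50 after the start of transcription on GRCh38.p14, were given for 33 of the 44 genes. CACGTG was in 9 of these 33 genes and TCACGTGA in 6. Counted over promoters, since some genes have several, 23.1% and 15.4% of 39 held them, beside 9.05% and 1.58% of the promoters of all genes tested. None of the 4 downregulated genes with a promoter sequence held CACGTG, while 3 of 9 upregulated and 6 of 20 uncalled genes did. The windows below show 1 match, in capitals, for the 3 upregulated genes and for 3 uncalled ones, each written 5′ to 3′ on the strand of the gene.
CTSA, chr20:45891299-45891326, plus strand: gcgccggagttCACGTGactcgtacaca
CTSD, chr11:1763958-1763985, minus strand: ccggccgcgccCACGTGaccggtccggg
ATP6V0B, chr1:43974892-43974919, plus strand: cggcgtggggtCACGTGgtaccggcgca
LAMP1, chr13:113297200-113297227, plus strand: acccgcgggatCACGTGacgcccgggcg
MCOLN1, chr19:7522572-7522599, plus strand: ccagaggcggtCACGTGaggggctctgg
GAA, chr17:80101494-80101521, plus strand: ggaggccgcgtCACGTGacccaccgcgg

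The match lay 25 bases before the start of transcription in CTSA, 47 in CTSD and 28 in LAMP1. LAMP1 had the most copies, 6 in its 300 bases, and was not called. The other genes with a match were ATP6V0D1, ATP6V1G1 and NEU1, none of them called. A match describes these letters only, and binding of a factor was not measured.

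Of the 4 autophagy genes, GABARAPL1 fell and SQSTM1 rose. GABARAPL1 (ENSG00000139112, chr12:10365057-10375727 on the plus strand) belongs to the family of small proteins that are joined to lipid on the growing autophagosome. It had 123.8, 127.3 and 128.1 CPM in si-N6AMT1 and 165.6, 158.1 and 160.4 CPM in si-CN, the widest gap of the 44 genes in proportion. Its log2 fold change was -0.35 (SE 0.0269, FDR = 1.59e-09), a decrease of 21.7%. SQSTM1 (ENSG00000161011, chr5:179233398-179265078 on the plus strand), which encodes the cargo receptor p62 that is itself degraded by autophagy, had 500.2, 516.1 and 504.6 CPM in si-N6AMT1 and 436.5, 441.0 and 433.3 CPM in si-CN. The groups did not overlap, and the log2 fold change was 0.21 (SE 0.0212, FDR = 9.93e-08), an increase of 16.0%.

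SQSTM1 overlaps 2 genes on the opposite strand, MGAT4B and MRNIP, whose CPM were 16.5% and 6.68% of its own and which were upregulated too (log2 fold changes 0.14 and 0.23). The libraries were made with a stranded kit, but whether strand was used in counting is not given in the sources used here, and the part of these genes in the SQSTM1 value was not tested. MAP1LC3B, the best known member of the same family as GABARAPL1, had 118.8, 126.8 and 124.0 CPM in si-N6AMT1 and 128.6, 126.4 and 133.2 CPM in si-CN, which overlapped. Its log2 fold change of -0.07 (interval -0.13 to -0.01) did not pass the test (FDR = 0.0962). WIPI1, which binds phosphoinositide at the site of autophagosome formation, was not called either (log2 fold change -0.04, FDR = 0.779). MAP1LC3B and WIPI1 also overlap genes on the opposite strand, FBXO31 and ARSG, with 21.9% and 18.1% of their CPM. Per transcript length, SQSTM1 stood at 2.66 ± 0.0424 (SD, n = 3) times GABARAPL1 in si-N6AMT1 and at 1.80 ± 0.0511 times in si-CN, a pair chosen after its values had been seen and not tested.

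Transcript levels of the 44 genes spanned about 2 orders of magnitude. Counts were divided by the length of the reference transcript to estimate TPM, a length-scaled level on which genes can be compared. In si-CN the level ran from 8.99 TPM for TFEB to 870.6 TPM for CTSB, with a median of 82.5 TPM beside 12.2 TPM over all genes tested. CTSB was followed by PSAP (740 TPM), CTSD (413 TPM), CTSZ (369 TPM), LAMP1 (355 TPM) and SQSTM1 (342 TPM). At the lower end stood TFEB, NAGLU (12.8 TPM), WIPI1 (16.9 TPM) and MCOLN1 (18.1 TPM). In the plot of levels by class, the pair of points of each gene lay close together relative to the differences between genes.

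**Figure D2:**
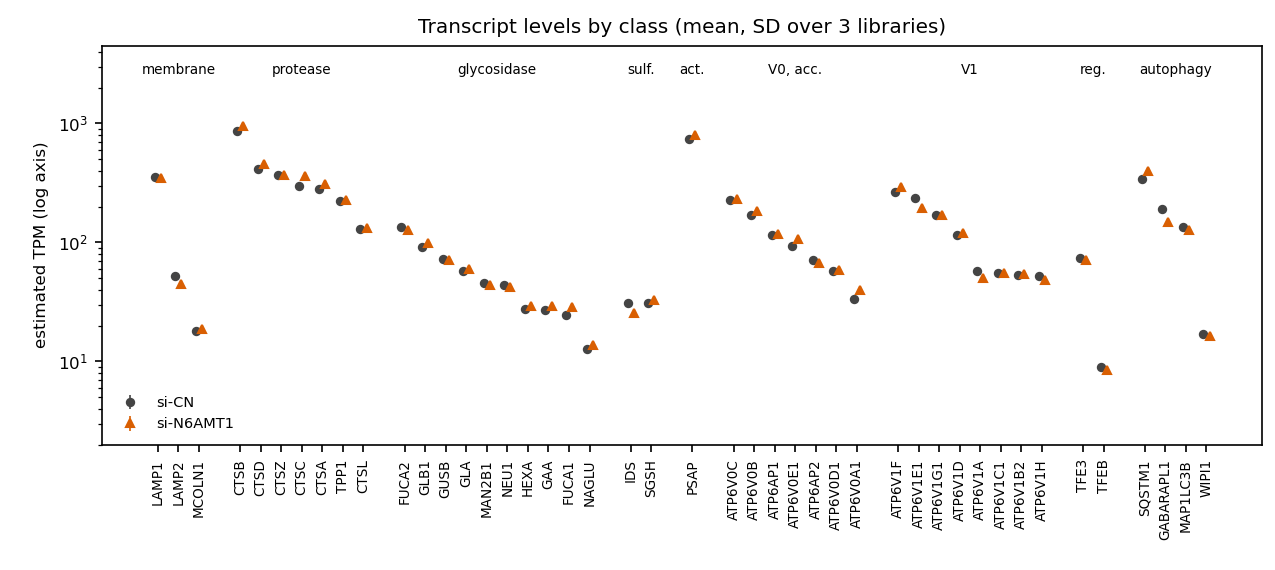
Estimated TPM of the 44 genes on a log axis, ordered by si-CN level within each class, as the mean of 3 si-CN (circles) and 3 si-N6AMT1 (triangles) libraries with the SD as bars, which are mostly smaller than the points. Levels run from TFEB at 8.99 TPM to CTSB at 870.6 TPM in si-CN, and the circle and the triangle of each gene lie close together.

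CTSB, PSAP and CTSD were both abundant and upregulated, and the 44 genes took a larger share of all counts after si-N6AMT1. The share was 0.788, 0.781 and 0.783% in si-N6AMT1 and 0.741, 0.751 and 0.743% in si-CN, with no overlap. The 7 proteases were the largest class in it, with 0.329 ± 0.00278% (SD, n = 3) in si-N6AMT1 and 0.300 ± 0.00439% (SD, n = 3) in si-CN. PSAP alone accounted for 0.0996 ± 0.00148% and 0.0909 ± 0.000121%. The 8 V1 genes together had 0.0775 ± 0.00148% and 0.0795 ± 0.000595%, and their libraries overlapped. No test was run on these sums.

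The 3′ UTRs of the reference transcripts were read for TTCACAT and TCACATA, 2 sequences that share 6 bases and had been picked earlier on the fold changes of these same libraries, so they are no independent measure. Of 13155 tested coding genes, 22.5% held at least 1 of them, as did 44.2% of downregulated, 11.9% of upregulated and 19.9% of uncalled genes. Of the 44 lysosome and autophagy genes, 9 (20.5%) held one. These were 3 of the 6 downregulated genes, 3 of the 12 upregulated and 3 of the 26 uncalled. Matches in 5 of the 6 called genes that hold one are shown, all but that of CTSB, which is given by name only, with the 7 bases in capitals, 1 per gene and on the strand of the gene, with GRCh37 positions, and all of them lie in the 3′ UTR.
GABARAPL1, chr12:10374596-10374620, plus strand: catcacattTTCACATgctcaattg
IDS, chrX:148562443-148562467, minus strand: aatctctctTTCACATgagcagggg
FUCA2, chr6:143816618-143816642, minus strand: taaagtctcTTCACATtgatttgtt
ATP6V0A1, chr17:40673490-40673514, plus strand: cccatgccaTTCACATctagacttt
SQSTM1, chr5:179264422-179264446, plus strand: ataaagaggTCACATAgtcgtgtgg

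IDS held 3 copies and FUCA2 held 2, whereas ATP6V1E1, LAMP2 and ATP6V1A, the other downregulated genes, held none. The 3′ UTR was 5758 bases long in IDS, 895 in FUCA2 and 1276 in GABARAPL1. Neither UTR length nor base content was taken into account in these counts and shares. The uncalled genes with a match were HEXA, ATP6V1C1 and ATP6V1G1. The median log2 fold change was 0.02 for the 9 genes with a match and 0.04 for the 35 without one, compared with -0.06 and 0.02 over all tested coding genes. No test was run on these counts.

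The downregulated genes had a lower median GC content than the upregulated and the uncalled genes, which were close to each other. The median GC content of the reference transcripts was 43.8% for the 6 downregulated genes, 52.9% for the 12 upregulated, 53.6% for the 26 uncalled and 48.1% for all genes tested. Across the 44 genes, which share the same 6 libraries, GC content and log2 fold change had Pearson's r = 0.326 and Spearman's rho = 0.310, beside 0.121 and 0.167 across 17239 genes. Once GC content was corrected for in each library and replicate number entered as a block, the values were 0.116 and 0.089 for the 44 genes. Under that fit 5 of the 6 downregulated genes were still called, FUCA2 was not (FDR = 0.128), and MAN2B1 (log2 fold change -0.12) and TFE3 (-0.10) were called downregulated. Of the 12 upregulated genes 11 were called, without ATP6V0B (FDR = 0.148).

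Further genes of the same organelle and pathway, in 6 lists that do not share a gene with the 44, were called at shares near those of all genes tested. Of 173 listed genes 168 were tested, and 24 (14.3%) were downregulated and 20 (11.9%) upregulated, where 11.5% and 9.78% of all genes tested were. Their median was 0.01 on the log2 scale. Their median si-CN level was 23.6 TPM, beside 12.2 TPM over all genes tested. Of the genes tested at or above 9.17 CPM, 18.2% were downregulated and 14.3% upregulated, although some of the further genes lay below that level. The plot of cumulative fold changes sets the further genes beside the 44 genes. The 30 tested further enzymes and activators held 6 downregulated and 6 upregulated genes. Among them PPT1, the thioesterase that removes palmitate from proteins, had 193.7, 198.2 and 197.1 CPM in si-N6AMT1 and 232.1, 227.7 and 220.5 CPM in si-CN (log2 fold change -0.21, FDR = 1.48e-06). The cysteine protease CTSS rose by a log2 fold change of 0.35 (FDR = 9.59e-06).

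**Figure D3:**
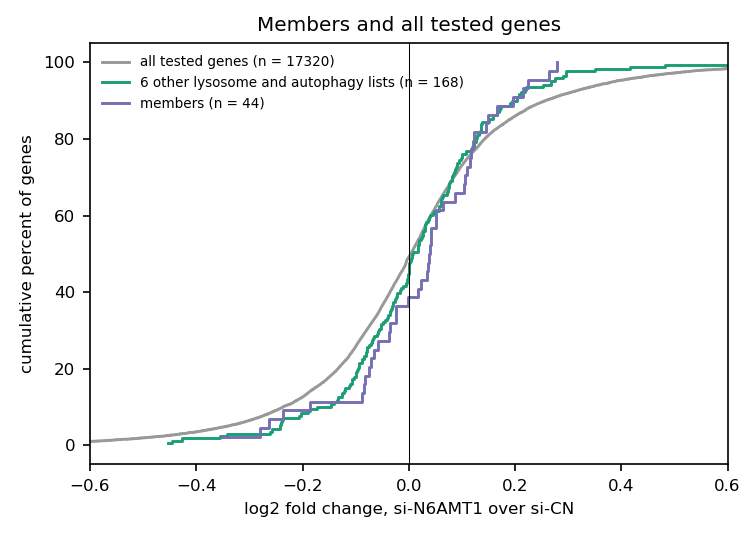
Cumulative percent of genes by log2 fold change in si-N6AMT1 over si-CN, for all 17320 genes tested (grey), 168 further lysosome and autophagy genes (green) and the 44 genes (violet). The 44 genes cross 0 with 17 of them below it and reach no further than -0.35 and 0.28, while the grey curve is wider on both sides.

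Of 22 further lysosomal membrane proteins, 3 were downregulated and 2 upregulated. OSTM1, a partner of the chloride-proton exchanger of lysosomes, had 40.5, 42.2 and 39.9 CPM in si-N6AMT1 and 54.0, 55.2 and 55.4 CPM in si-CN, a log2 fold change of -0.43 (FDR = 2.69e-08) that exceeded that of any of the 44 genes. LAPTM4A rose by 0.12 (FDR = 6.76e-04). Among 18 further genes of the proton pump, 2 fell and 2 rose. DMXL1, related to the factors that assemble the pump, had a log2 fold change of -0.24 (FDR = 3.76e-04), and NCOA7, which has a domain that binds the pump, one of 0.27 (FDR = 3.37e-06).

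Among the mRNAs of 27 genes of enzyme sorting and lysosomal fusion, 3 were downregulated and 4 upregulated. The 2 receptors that carry hydrolases by their mannose 6-phosphate tag moved apart. IGF2R, the larger one, had 177.2, 176.8 and 179.4 CPM in si-N6AMT1 and 199.0, 209.4 and 205.7 CPM in si-CN (log2 fold change -0.20, FDR = 2.25e-06). M6PR, the smaller one, had 190.5 ± 8.37 CPM in si-N6AMT1 and 168.9 ± 4.20 CPM in si-CN (SD, n = 3 each; log2 fold change 0.17, FDR = 1.30e-04). In neither gene did the groups overlap.

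Of 29 genes that control TFEB through the kinase mTORC1 or by other routes, 4 were downregulated and 3 upregulated. PPP3CB, a catalytic subunit of calcineurin, the phosphatase that activates TFEB, fell by 0.26 on the log2 scale (FDR = 7.32e-04). LAMTOR1, the anchor of the Ragulator complex on the lysosomal membrane, rose by 0.17 (FDR = 0.00608). The 42 tested genes of the further autophagy machinery held 6 downregulated and 3 upregulated. ATG12, the ubiquitin-like protein that is joined to ATG5, had 52.4, 52.2 and 49.5 CPM in si-N6AMT1 and 65.4, 65.0 and 66.6 CPM in si-CN (log2 fold change -0.36, FDR = 1.40e-07). VMP1, a membrane protein needed for autophagosome formation, rose by 0.16 (FDR = 1.60e-05).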

How the data were processed

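RNA-seq libraries, 3 per group, were made from poly(A) RNA with a stranded kit. The authors trimmed paired-end reads with Trim Galore and estimated counts per transcript with kallisto 0.46.0 on hg19, summed per gene. They deposited these estimated counts unnormalized, as whole numbers. Strand use in counting is not given in the sources used here. Estimation divides reads shared by overlapping or near-identical genes, so such genes are less certain. Symbols, lengths, GC content and 3′ UTRs were taken from GENCODE release 44 on GRCh37, and 62149 of 62438 identifiers had a symbol there.

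Genes were filtered with filterByExpr (minimum count 10), scaled by TMM and tested with edgeR 4.0.16 (quasi-likelihood test, R 4.3.3) in all 6 libraries without covariates. P-values were adjusted by Benjamini-Hochberg over the 17320 genes tested, and every FDR in the text comes from this test unless another fit is named. The common biological coefficient of variation was 1.85%. CPM used TMM library sizes. Fits with DESeq2 1.42.0, limma-voom (limma 3.58.1), RLE scaling, no filter, a replicate block, a GC correction and each library left out were alternatives. The script was tested on simulated data.

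The 44 genes, the 6 further lists, the 3 marker lists and the sequences searched were chosen with earlier results of these data known. Values in each library were given for called genes and for TFEB, TFE3, LAMP1, LAMP2, MCOLN1, SQSTM1 and MAP1LC3B, and from each further list the called gene with the smallest FDR in each direction was named. Intervals are 95% and cover the spread between libraries.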

Additional observations from a re-analysis of the deposited data

How the results depend on the processing

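Of the 18 lysosome and autophagy genes called, 15 were called in each of 13 alternative fits (5 down, 10 up) and none changed direction. The exceptions were FUCA1, FUCA2 and ATP6V0B. GAA was called with RLE scaling (FDR = 0.0496). DESeq2 on all genes with a count called 1136 genes down and 796 up over all genes and 10 of the further lysosome and autophagy genes up. DESeq2 restricted to an estimated TPM of 1 or more called 1239 down, 930 up and 11. Both gave 5 of the 44 genes down, and 10 or 11 up. The cause was not tested. With each library left out in turn, 1540 to 1818 genes were down and 1295 to 1523 up, 5 to 6 and 11 to 12 of the 44 genes, and 19 to 25 and 16 to 22 of the further genes, and N6AMT1 had a log2 fold change of -1.18 to -1.04. Same-numbered libraries did not deviate together (r = -0.1215, -0.0871 and 0.0042 over 10103 genes), so no pairing by number was seen. The highest values were 0.11 for si-N6AMT1 replicate 1 with si-CN replicate 2 and 0.1042 for si-N6AMT1 replicate 2 with si-CN replicate 1. Whether these libraries were made together is not given and was not tested. With the replicate number as a block 1804 genes were down and 1522 up, including 6 and 12 of the 44, and with the GC correction added 7 and 11. TPM from the longest transcript moved the level of all 44 genes by more than 1 SD. Depth limits TFEB, NAGLU, WIPI1 and MCOLN1 most.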

Other observations

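GABARAPL2, GABARAP and CD68 are described here after their values had been seen. GABARAPL2, of the same family as GABARAPL1, was one of the 6 downregulated genes of the further autophagy machinery. It had 63.0, 71.1 and 68.1 CPM in the si-N6AMT1 libraries and 87.0, 86.0 and 83.6 CPM in the si-CN libraries. Its log2 fold change was -0.34 (SE 0.0376, FDR = 4.56e-07 by edgeR), next to -0.35 for GABARAPL1 and -0.07 for MAP1LC3B, which was not called. GABARAP, also of this family, had 169.4, 172.5 and 174.3 CPM in si-N6AMT1 and 176.2, 176.3 and 173.4 CPM in si-CN. It was not called either (log2 fold change -0.03, FDR = 0.497 by edgeR).

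CD68, used as a macrophage marker and encoding a glycoprotein of the LAMP family, had 204.2, 195.9 and 203.0 CPM in the si-N6AMT1 libraries and 141.5, 142.1 and 142.2 CPM in the si-CN libraries. The log2 fold change of 0.50 (SE 0.0251, FDR = 1.64e-12) was larger than that of any of the 44 genes. The macrophage marker CD163 and the leukocyte marker PTPRC had at most 1 and 3 counts in any library. The summed level of the 11 markers of other cell types was 245.4 to 256.5 CPM in si-N6AMT1 and 192.0 to 195.0 CPM in si-CN, and 49.5 to 52.3 and 50.5 to 52.9 CPM without CD68. Among these markers HBB was also called, downward (log2 fold change -1.10, FDR = 0.0193), at 7 to 12 counts against 17 to 22, and it was not called without si-N6AMT1 replicate 1 or 3 or si-CN replicate 1 or 2 (FDR = 0.0821, 0.0814, 0.0876 and 0.0550). Of the luminal markers 8 of 13 were tested, with EPCAM downregulated (12.5%) and 2 upregulated (25.0%). Of the 12 basal and mesenchymal markers AXL was downregulated (8.33%) and 7 were upregulated (58.3%). Among all genes tested 11.5% were downregulated and 9.78% upregulated. The tested markers had median si-CN levels of 62.2 and 163.5 TPM, beside 12.2 TPM over all genes tested, and abundant genes were called more often. No test was run on these lists.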
